A study of Oncorhynchus kisutch with 82 samples.

Results

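The 200 probes described here differed strongly from fish to fish inside each season, while the middle value of the 3 seasons stayed nearly level. They were chosen from the 43236 probes of a salmon array on which gill of juvenile coho salmon was measured. A probe first needed values on at least 80% of the arrays in each of river smolts, ocean summer and ocean fall fish, which 19083 probes had. Of these, 11022 had season medians less than 0.4 apart and are called flat below. The flat probes were ranked by the smallest of their 3 within-season median absolute deviations (MADs, unscaled), and the 200 highest were kept. Spread and season medians in these fish therefore chose the members, and both are given as a description with no test.

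The gill of a salmon is at once a surface for gas exchange, a salt-transporting epithelium and a first contact with waterborne microbes. When a juvenile turns into a smolt and enters the sea, specialised ionocytes of the gill switch from taking up salt to secreting it. Its tissue also holds epithelial, blood and immune cells, whose transcripts all enter a whole-gill measurement.

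Each of the 82 arrays carried the gill RNA of a separate fish, of wild or hatchery origin, against a common pool of gill RNA. The fish and the pool each carried the same Alexa dye on every array. The values are the deposited log ratios of the 2 channels, taken as log2. The log base and the way round of the ratio are both unsettled, so "higher" below means a higher deposited log ratio and not more RNA.

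The rule used 62 arrays. The 20 river smolts, caught in fresh water, came from Chilliwack in 2008 (8 fish, 3 hatchery and 5 wild), Chehalis in 2009 (8 hatchery fish) and Salmon River in 2009 (4 wild fish). The 17 ocean summer fish comprised 7 of 2008 (2 hatchery, 5 wild) and 10 of 2009 (5 and 5). The 25 ocean fall fish comprised 14 of 2008 (6 hatchery, 8 wild) and 11 of 2009 (6 and 5). All 42 of these ocean fish came from areas labelled north_SoG (10 fish), mid_SoG (17) or south_SoG (15). The stock label was Chilliwack_R for the Chilliwack smolts and Fraser for those of Chehalis and Salmon River. Summer fish were labelled Fraser in 2008 (7), and Fraser (9) or S_Main (1) in 2009. Fall fish of 2008 were labelled Fraser (7), Chilliwack_R (5) or S_Main (1), with 1 not given. Those of 2009 were labelled Fraser (10) or Chilliwack_R (1). Across the 62 fish there were 30 hatchery and 32 wild fish, with 21 females, 29 males and 12 of unrecorded sex. Fork lengths ran from 5.0 to 28.2 cm. The labels name no treatment, and no fish was measured more than once, so a value of 1 fish cannot be separated from a value of its array.

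The rule left 20 arrays aside. Of these, 14 stood apart through a wide spread of log ratios (SD above 1.3): 7 smolts of Chilliwack, 5 fish of summer 2009 and, in fall, 1 fish from either year. The other 4 spring and 2 winter fish, all of 2009, belonged to seasons the rule did not name. On the 62 arrays kept, the SD ran from 0.687 to 1.21 with a median of 0.834, and it was above 1 on 10 of them. Each of the 82 arrays held between 12606 and 31972 values.

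No gene or sequence is paired with a probe in the files. Members are therefore named by probe ID (array column and row), no gene function can be given for any of them, and the gill cell types behind them could not be checked against marker genes. In bulk gill, a smaller share of a cell type and less RNA per cell cannot be told apart.

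The score of the members, their smallest within-season MAD, ran from 0.930 at C111R146 down to 0.424, with a median of 0.475. The median score of the flat probes was 0.193, and that of the 19083 probes with enough values was 0.216. As many as 1249 probes had a score at or above that of the last member, but 1049 of them had season medians too far apart to be kept. At the lower limit, C117R052 (0.4242) and C217R082 (0.4241) were inside and C189R170 (0.4240) and C208R070 (0.4233) just outside. At the limit on season medians, C237R056 and C028R047 were inside with medians 0.398 and 0.399 apart, and C131R142 and C186R149 outside, both with 0.401. All 62 fish had a value for 97 members, and the sparsest member had 51 values.

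The most variable member, C111R146, ran from -4.46 to 3.02 in the 20 smolts, with a median of -2.06. In the 17 summer fish it ran from -4.10 to 1.07 (median -2.04), and in the 25 fall fish from -4.64 to 2.36 (median -1.67). The 3 seasons overlapped over most of their range. The 4 Salmon River smolts alone, numbered 1442, 1435, 1439 and 1441, read -3.01, -0.92, -2.01 and -0.29. Spring fish, outside the rule's seasons, read -1.86, -1.47, -4.46 and -3.98, so their fish-to-fish range was wide too. The winter fish read -2.52 and -2.15, close to each other. The 7 wide-spread Chilliwack arrays ran from -0.70 to 6.07 (median 1.95), higher than most of the arrays kept. C111R146 joined no block of co-varying members.

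The second, C009R162, ran from -2.61 to 2.95 in 18 smolts, from -2.80 to 2.39 in 16 summer fish and from -2.44 to 2.62 in 24 fall fish, with medians of -0.50, -0.26 and -0.28. The third, C227R104, ran from -1.40 to 2.40 in 18 smolts, from -0.93 to 2.57 in 16 summer fish and from -1.25 to 2.59 in 22 fall fish. Its Chilliwack and Salmon River smolts did not overlap. The 8 Chilliwack smolts lay between 1.18 and 2.32, and the 4 Salmon River smolts read -0.17, -0.65, -1.40 and -0.98. Chehalis spanned both. Of its 6 smolts with a value, 3 lay at 0.17 or above, up to 2.40, and the others at -0.17 or below. The other members of the 10 most variable were C180R129, C261R113, C244R087, C089R039, C037R030, C247R077 and C024R036. Among these, the widest range in 1 season was that of C244R087 in fall fish, from -3.18 to 3.34.

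The same spread was looked at in the arrays the rule did not use. In the 4 spring fish, 168 members had enough values, with a median MAD of 0.255. Of the 19083 probes named above, 16848 had enough values there, with a median MAD of 0.150. The median MAD of the flat probes among these was 0.140. The median member stood at the 81.1 percentile of those 16848 probes, and 35.1% of the members were among their most variable 10%. In the wide-spread arrays the members stood out less. Their median percentile was 57.3 in the 7 Chilliwack smolts (131 members measured) and 58.9 in the 5 summer fish of 2009 (184 members).

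The members did not vary independently of each other. Over the 97 members with a value in all 62 fish, the median absolute correlation of deviations from the season median was 0.290, against 0.195 for the 6569 flat probes with complete values. A correlation of at least 0.6 in size was held by 11.7% of member pairs and by 1.93% of flat pairs. These figures share the fish and arrays that chose the members, and they carry no test. Of all 19900 pairs of members, 58 had r of 0.9 or more and 0 had r of -0.9 or less.

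Average-linkage clustering of the deviations, with the tree divided at an absolute r of 0.6, gave 7 blocks of at least 5 members. Of the 88 members in none of them, 36 clustered with no other probe. Block A held 55 members, B 23, C 10, D 7, E 6, F 6 and G 5. The score of a fish in a block is the mean deviation of the block's members from their season medians, with the sign turned for members that ran opposite to the lead member. Only A (3 members: C038R103, C051R114 and C264R022) and C (4 members) held such opposite members. The median distance between spots on the array was between 84.96 and 163 spots within blocks, against 109 for all member pairs. Pairs within 10 spots of each other made up 16 of 1485 in A and 1 of 10 in G, against 139 of all 19900. The pair in G was C036R003 and C026R003, with r = 0.96 over 58 fish.

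Block A was led by C152R168, C091R035 and C026R151. At C152R168, 8 Chilliwack smolts lay between -0.73 and 0.37 (median -0.07), 7 Chehalis smolts between -2.35 and 0.45 (median -1.24), and the 4 Salmon River smolts read -1.81, -2.07, -3.03 and -2.34. In fall fish it had a median of -0.24 in 2008 (14 fish, -2.22 to 0.30) and of -2.18 in 2009 (11 fish, -3.15 to -0.20). Chilliwack and Salmon River smolts did not overlap, while the 2 fall years did.

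The block A score followed the same order. It was between 0.11 and 0.71 in the 8 Chilliwack smolts, between -1.51 and 0.87 in the 8 Chehalis smolts and between -1.87 and -0.83 in the 4 Salmon River smolts. Summer fish had medians of 0.31 in 2008 and -0.13 in 2009, and fall fish 0.62 and -1.13. The 2 fall years overlapped, with the lowest fish of 2008 at -2.01 and the highest of 2009 at 0.41. The means of all 55 members, with the 3 signs turned, were higher in Chilliwack than in Salmon River smolts and higher in the fall of 2008 than of 2009. The clustering placed these members together because they share such deviations, so that count carries no weight of its own.

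Block A was also not limited to the members. Of the 19083 probes with enough values, 1303 had a correlation of at least 0.8 in size with its score, and 49 of them were members. The probe closest to the score, C135R144 (r = 0.97), was no member because its season medians lay 1.05 apart. Block C had 1127 such probes, B 239, F 53, G 49, D 39 and E 11. Blocks A and C thus ran with many more probes than E did.

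Block B was led by C009R039, C028R067 and C165R057. At C009R039 the 4 Salmon River smolts read 1.12, 1.72, 1.73 and 0.75, against medians of 0.21 in 8 Chilliwack smolts (-0.59 to 1.32) and -0.07 in 8 Chehalis smolts (-0.87 to 0.94). The ranges overlapped. The score of B ran from -1.06 to 1.76 over all fish, with a median of -0.47 in the fall of 2008 and 0.37 in the fall of 2009.

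In blocks C and D all groups of fish overlapped. The score of C, led by C143R053, C180R042 and the opposite member C216R137, had medians between -0.41 and 0.50 in the 7 groups of fish. That of D, led by C130R125, C006R029 and C070R075, had medians between -0.34 and 0.48. The fall medians were -0.41 in 2008 and 0.50 in 2009 for C, and -0.30 and 0.29 for D. The score of F, led by C170R107, C039R158 and C107R164, was lowest in 1 fall fish of 2008 at -3.46 and was between 0.67 and 1.27 in the Salmon River smolts. The 8 Chehalis smolts ran from -0.77 to 0.68 in F and the 8 Chilliwack smolts from -0.59 to 0.86, so both overlapped with Salmon River.

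After G, block E had the widest range of scores. It was led by C244R087, C024R002 and C085R091, and C009R162 was also in it. Its score ran from -2.39 in a summer fish of 2008 to 2.88 in a fall fish of 2009. The 8 Chehalis smolts all lay below 0 (-1.20 to -0.20) and the 4 Salmon River smolts all above (0.76 to 2.29), while Chilliwack smolts ran from -1.05 to 2.75. At C244R087 the 14 fall fish of 2008 ran from -3.18 to 3.34 with a median of -1.82, and the 11 of 2009 from -1.75 to 2.26 with a median of -0.55.

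Block G, led by C236R017, C036R003 and C026R003, had a single high fish among the 62 arrays. Fish 1, a hatchery smolt of Chilliwack, had a score of 6.53, and the next of the 8 Chilliwack smolts had 1.85. The array of fish 1 had an SD of 1.19, in the upper part of the 62, and the part of array spread was not tested. In the other groups of the 62 arrays no score was above 1.64. The 7 wide-spread Chilliwack arrays, which the rule did not use, scored from 3.54 to 6.91 (median 4.12), so fish 1 lay inside their range. The 5 wide-spread summer arrays of 2009 scored from 0.50 to 3.02. At C236R017 the highest Chilliwack value was 6.12 and the median of 6 smolts with a value was 0.34.

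The blocks were not independent of each other. Over the 62 fish the score of A correlated with that of C at r = -0.78 and with that of B at -0.65, and B correlated with D at 0.78 and with F at 0.76. The score of E correlated with no other block beyond 0.41 in size.

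The blocks held together to a different degree in arrays the rule did not use. The mean correlation of a block's members, signs turned, was between 0.69 and 0.81 in the 62 fish. In the 14 wide-spread arrays it was 0.89 for G, 0.74 for E, 0.60 for A, 0.43 for B, 0.35 for C, 0.31 for F and 0.06 for D, against 0.15 for members of different clusters. In the 6 spring and winter fish it was 0.94 for E, 0.55 for C, 0.45 for D, 0.43 for both A and B, 0.31 for G and 0.16 for F, against 0.15 for members of different clusters. Block E thus kept a high mean correlation in both sets, and D and F did not. The 14 arrays come from different groups, and group differences add to these correlations.

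Measures of the arrays themselves moved with several blocks. The log ratio of the DarkCorner control spots correlated with the block score at r = -0.50 for A (rho = -0.43), 0.59 for B (rho = 0.54), 0.54 for C (rho = 0.44), 0.60 for D (rho = 0.61) and 0.48 for F (rho = 0.56), over 62 arrays each. Without the 2 arrays farthest from the median of the control, these r were -0.46, 0.60, 0.51, 0.61 and 0.47. The number of values on the array correlated with A at r = 0.48 (rho = 0.47) and with C at -0.51 (rho = -0.51). For E, the r with the DarkCorner spots was 0.17, and 0.24 without those 2 arrays. For G it was 0.36 (rho = 0.36, 61 arrays), and 0.49 without 2 arrays. The SD of the array correlated with B at r = 0.42 (rho = 0.29), with D at 0.40 (rho = 0.31) and with G at 0.39 (rho = 0.25), and without 2 arrays at 0.41, 0.32 and 0.24. For G, the r of 0.77 (rho = 0.30, 61 arrays) with the GE_BrightCorner control spots was 0.23 without 2 arrays. The E1A_r60_3 control spots correlated with A at r = 0.37 (rho = 0.36) and with C at -0.46 (rho = -0.43). Without 2 arrays these r were 0.44 and -0.44. In the other blocks the r with this control ran from -0.26 (G) to -0.01 (D). The part of these array measures in the blocks was not tested.

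Some members had a gap between high and low values. By width of the gap relative to the range, with at least 5 fish on either side, the first 5 were C178R094, C214R128, C190R120, C045R046 and C040R097. All but C040R097 were in no block. The list stops at 5 without a clear break, since C115R088 and C253R123 of block A followed with relative gaps of 0.1543 and 0.1534, against 0.1544 at C040R097. C214R128 and C045R046 were also the closest pair of all members, with r = 0.98 over 62 fish and spots 188 apart on the array.

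At C214R128, 48 fish lay between -5.74 and -2.21 (median -4.75) and 14 fish between 0.38 and 4.50 (median 1.59). At C045R046, 48 fish lay between -5.33 and -1.29 (median -4.44) and 14 between 0.50 and 3.38 (median 1.87). The same 14 fish were above 0 at both probes. They comprised 0 of 8 Chilliwack, 2 of 8 Chehalis and 1 of 4 Salmon River smolts, 2 of 7 summer fish of 2008 and 2 of 10 of 2009, and 4 of 14 fall fish of 2008 and 3 of 11 of 2009. The high value thus occurred in every season, and by sex in 9 of 21 females and 5 of 29 males.

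In the 20 arrays outside the rule, 1 fish was above 0 at both probes and 19 were below 0 at both, and the r of the pair was 0.96. The split was less clean there. At C214R128, 5 of the 14 wide-spread arrays fell inside the gap seen in the 62 fish, and at C045R046 1 did. In the fit across all probes, the difference of males minus females was -1.80 ± 0.92 (SE) at C214R128 and -1.76 ± 0.88 at C045R046 in 50 fish of known sex. Neither passed limma's test after Benjamini-Hochberg adjustment (adjusted p = 0.9997 for each, unadjusted 0.0557 and 0.0508).

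One probe outside the list, looked up after its values were seen, ran with this pair. C251R030 had r = 0.97 with C045R046 over 62 fish. It lay between -0.38 and 2.71 in the 14 high fish and between -5.18 and -2.22 in the other 48. Its score of 0.251 left it below the members. Apart from C214R128, no other probe of the 19082 compared with C045R046 reached 0.8 in size.

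C178R094 was low in 9 of 61 fish (-6.20 to -3.92) and between -1.84 and 1.42 in the other 52. The low fish were 1 Chilliwack, 3 Chehalis and 1 Salmon River smolt, 1 summer fish of 2009 and 3 fall fish of 2008. None of the 19082 probes it was compared with had a correlation of 0.7 or more in size with it. In the 20 arrays outside the rule, 0 were below the middle of the gap, and 5 of the 14 wide-spread arrays fell inside it.

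At C190R120, 6 of 60 fish were high (1.505 to 1.80) and 54 lay between -1.38 and 0.79. At C040R097, a member of block A, 6 of 62 fish were low (-4.05 to -3.18), and 4 of these were fall fish of 2009. Of the 14 wide-spread arrays, 7 were below the middle of that gap. The gap at these 2 probes was narrower, 0.72 and 0.84, than the 2.59 at C214R128.

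The members were then set against what is known of each fish. Each fit used limma across all probes with enough values, with the p-values adjusted over all of them by Benjamini-Hochberg and a call at an adjusted p below 0.05. All 200 members were tested in each. Differences between fish of one season are what the rule selected, so any such factor adds to the members' spread. A share of called members is therefore printed beside the share of all probes, and nothing is read from the excess.

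Sex called 0 of 23597 probes (0.0%), and 0 members, in 50 fish with river or season and year, and origin, as covariates. Among the smolts, only Chehalis held both recorded sexes (2 females, 6 males). No Chilliwack smolt had a recorded sex, and the 2 sexed Salmon River smolts were both male. At an unadjusted p under 0.05 limma gave 1138 probes (4.82%) and 9 members. The member with the smallest p was C069R130, with a range of -2.80 to 0.36 (median -1.28) in 21 females and of -2.06 to 1.16 (median -0.37) in 29 males. The sexes overlapped, and the fitted difference of 0.65 ± 0.24 (SE) had an adjusted p of 0.943 in limma.

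The difference between the sexes did not change detectably between summer and fall: limma called 0 of 22502 probes (0.0%) and 0 members for that interaction in 40 fish, with 757 probes (3.36%) and 7 members at an unadjusted p under 0.05. C070R043 had the smallest p of the members (1.67 ± 0.51, SE, limma adjusted p = 1.0).

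Origin called 0 of 23686 probes (0.0%) and 0 members in 62 fish. Limma gave 682 probes (2.88%) and 6 members at an unadjusted p under 0.05. C108R037 came first among the members. It ran from -2.23 to 1.99 (median -0.33) in 30 hatchery fish and from -2.16 to 2.43 (median -0.10) in 32 wild fish, and the difference within groups, wild minus hatchery, was 0.63 ± 0.25 (SE, limma adjusted p = 1.0). The 8 Chehalis and 4 Salmon River smolts each held a single origin and did not bear on it.

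The area at sea called 0 of 23251 probes (0.0%) and 0 members in 42 fish, with 595 probes (2.56%) and 4 members at an unadjusted p under 0.05 by limma's F-test. Season and year, and origin, were covariates there. In fall, mid_SoG held 11 of 14 fish of 2008 and south_SoG 8 of 11 of 2009, so within a fall year few fish differed in area. C196R033 had the smallest p. Its medians were 0.81 in north_SoG (10 fish, -0.03 to 1.37), 0.31 in mid_SoG (17 fish, -0.76 to 1.46) and -0.01 in south_SoG (15 fish, -1.71 to 1.04). These ranges overlapped, and its adjusted p from limma was 0.9999. With the wide-spread arrays added, 48 fish, limma still called 0 of 23008 probes, but 4940 probes (21.5%) and 27 members (13.5%) had an unadjusted p under 0.05.

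Size within a river, or within a season and year, gave no call either on the 62 arrays. Those groups and origin were covariates, so size differences between the groups were not tested. Fork length called 0 of 24327 probes (0.0%) and 0 members, with 1411 probes (5.8%) and 11 members at an unadjusted p under 0.05 in limma. The smallest p among the members was at C209R008, with a slope of 0.15 ± 0.05 per cm (SE, limma adjusted p = 0.740). This result turned on the arrays used. With the 14 wide-spread arrays added, limma called 1996 of 23637 probes (8.44%) and 33 members, and without the 5 cm smolt of Chilliwack, an alternative chosen after seeing the data, 27 members. The 7 wide-spread Chilliwack smolts lie in the group that holds the whole smolt length range of 5.0 to 14.1 cm. Each of them was longer than most of the 8 Chilliwack smolts kept. Length and array spread thus ran together in that group, and their parts in these calls were not tested. Body condition (mass over cubed length) called 0 of 24357 probes (0.0%) and 0 members in 58 fish with a recorded mass, with 949 probes (3.9%) and 2 members at an unadjusted p under 0.05. C044R148 had the smallest p among members, with a limma adjusted p of 0.999.

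The position of the array on its slide, a technical term, called 0 of 23047 probes (0.0%) and 0 members by limma's F-test. At an unadjusted p under 0.05 it gave 1547 probes (6.71%) and 16 members. C178R087 was first among the members (limma adjusted p = 0.719).

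River was the factor with the most calls. Limma's F-test over the 3 rivers called 5053 of 22702 probes (22.3%) in the 20 smolts, and 92 members (46%). River, year and stock label cannot be told apart between Chilliwack and the other 2 rivers, nor river and origin between Chehalis and Salmon River. This fit had no covariate, and the parts of size and slide were not tested. Fork lengths ran from 8.4 to 11.7 cm in Salmon River, 11.4 to 12.5 cm in Chehalis and 5.0 to 14.1 cm in Chilliwack smolts. Of the 92 members, 52 were highest in Chilliwack, 12 in Chehalis and 28 in Salmon River. Salmon River was the lowest in 53, Chehalis in 26 and Chilliwack in 13. In 0 of the 92 did all 3 rivers keep apart without overlap. These counts of order and overlap were made for the members alone. No such counts over all probes stand beside them, so nothing is read from them. With the 7 wide-spread Chilliwack arrays added, limma called 105 members and 7796 of 20882 probes (37.3%).

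Of the 92 called members, 30 lay in no block, beside 88 of all 200 members. No counts over all probes stand beside the counts by block, so nothing is read from them. Block A held 43 of the called members, of which 41 were highest in Chilliwack and 41 lowest in Salmon River. Block B held 11, all highest in Salmon River. Block E held 5 of its 6 members, all highest in Salmon River and lowest in Chehalis. F held 2 and G 1, and C and D held 0 each. The 30 called members outside blocks were divided, with 10 highest in Chilliwack, 11 in Chehalis and 9 in Salmon River. The clustering pooled the rivers, so river differences helped to form the blocks. Calls of 1 direction within a block are therefore not independent of each other.

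Each of the 20 smolts was also left out in turn. Without Salmon River fish 1439, limma called 3363 probes (15.1%) and 68 of the 92 members stayed called. Without each of the other 3 Salmon River fish, 73 to 78 of the 92 did, and without each of the Chilliwack and Chehalis smolts, an alternative chosen after seeing the data, 83 to 90 did. The shares of all probes called there were 17% to 17.5% and 18% to 27.9%. Fish 1439 also had an array SD of 1.06, one of the wider ones, and 17.0% of its member values lay over 2 scaled MADs from the season median.

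C194R085 had the smallest adjusted p. In 8 Chilliwack smolts it ran from -0.58 to -0.11 (median -0.32), in 8 Chehalis smolts from -2.69 to -1.64 (median -2.24), and in Salmon River fish 1442, 1435, 1439 and 1441 it was -1.96, -1.40, -2.29 and -1.79. Chilliwack stood apart from both other rivers, which overlapped. The means were -0.32 ± 0.18 (SD, n = 8), -2.22 ± 0.39 (n = 8) and -1.86 ± 0.37 (n = 4), with limma's F = 64.8 and adjusted p = 1.19e-05. Values of -1.01 or above also occurred at sea, in 5 of 7 summer fish of 2008, all labelled Fraser, and 2 of 10 of 2009. In fall they occurred in 4 of 14 fish of 2008 and 5 of 11 of 2009.

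C227R057 gave the same picture as C194R085, with which it correlated at r = 0.96 over 62 fish. Its 8 Chilliwack smolts ran from -1.29 to -0.06, its 8 Chehalis smolts from -3.29 to -1.79, and Salmon River smolts read -2.30, -1.35, -2.51 and -2.16 (limma F = 36.2, adjusted p = 0.000177). Neither probe was in a block.

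The other 2 had Salmon River apart. At C171R069, 8 Chilliwack smolts ran from 0.15 to 1.27 and 7 Chehalis smolts from -0.61 to 0.94, while Salmon River smolts read -1.65, -1.59, -1.45 and -1.05 (limma F = 38.2, adjusted p = 0.000173). At C138R165, 8 Chilliwack smolts ran from 0.08 to 0.73 and 6 Chehalis smolts from -0.85 to 0.75, and Salmon River smolts read -1.93, -1.42, -2.19 and -1.99 (limma F = 38.5, adjusted p = 0.000188). Both probes were in block A.

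The 7 wide-spread Chilliwack arrays, which entered neither the rule nor the fit, give further values at these 4 probes. C194R085 was between -0.79 and 0.29 in 6 of them and C227R057 between -0.75 and 0.07 in 6, both above every smolt of the other 2 rivers. C171R069 was between 0.41 and 0.85 in the 3 with a value, and C138R165 between -0.44 and 0.10 in 3. Both were above every Salmon River smolt and inside the Chehalis range. At C138R165 they also reached below the lowest Chilliwack smolt kept. These are other fish of the same river and year, so they bear on the spread of Chilliwack and not on what divides the rivers.

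Year at sea, 2009 minus 2008, was tested in 42 summer and fall fish with season and origin as covariates. Area and sex were not covariates, and both differed between the years in fall. In mid_SoG were 11 of 14 fall fish of 2008 and 2 of 11 of 2009, and in south_SoG 2 and 8. Females and males numbered 8 and 5 in the fall of 2008, and 3 and 8 in that of 2009. The parts of area and sex in the year calls, and in the fall differences of the blocks above, were not tested. Limma called 642 of 23427 probes (2.74%), 280 higher in 2009 (1.2%) and 362 lower (1.55%). Of the members, 9 (4.5%) were called, 2 higher and 7 lower in 2009. At an unadjusted p under 0.05 the counts were 7143 probes (30.5%) and 98 members (49.0%). Of the 9, 5 were in block A and 4 in no block.

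The 2 members higher in 2009 resembled each other. C021R146 ran from -3.06 to 0.43 (median -0.40) in 20 fish of 2008 and from -0.67 to 1.60 (median 0.55) in 20 fish of 2009, a fitted difference of 1.23 ± 0.22 (SE, limma adjusted p = 0.00568). C043R014 ran from -3.06 to 0.64 (median -0.36) in 19 fish and from -0.31 to 1.76 (median 0.54) in 19 fish, a difference of 1.21 ± 0.23 (SE, limma adjusted p = 0.00766). The years overlapped at both probes, and in both 1 fall fish of 2008 lay lowest, at -3.06.

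Among those lower in 2009, C189R009 ran from -1.44 to 0.47 (median -0.53) in 21 fish of 2008 and from -2.17 to -0.19 (median -1.46) in 20 of 2009. Its difference was -0.81 ± 0.19 (SE, limma adjusted p = 0.0267). C266R113 in block A went from a median of 0.13 (-1.73 to 0.77) to -1.04 (-2.79 to 0.20) in 21 fish each, by -1.11 ± 0.26 (adjusted p = 0.0277 in limma). C082R044 went from a median of 0.13 (-2.66 to 1.41) to -0.92 (-2.74 to 0.25), by -0.99 ± 0.26 (adjusted p = 0.0409 in limma). The years overlapped at all 3. The other 4 called members, C022R025, C048R094, C193R045 and C253R123, were in block A and had differences between -1.02 and -0.87.

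The smolts, which had no part in that fit, and the spring and winter fish give further values for these probes. At C189R009, 8 Chilliwack smolts of 2008 ran from -0.71 to 0.25, 7 Chehalis smolts of 2009 from -1.28 to -0.08, and the 4 Salmon River smolts of 2009 read -1.53, -1.51, -1.68 and -1.77. The 4 spring fish of 2009 read -1.03, -0.67, 0.17 and -0.41 and the 2 winter fish 0.22 and 0.14. All 6 of these fish of 2009 lay above the summer and fall median of that year, -1.46, and 5 of them nearer to the 2008 median of -0.53.

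At C266R113, 8 Chilliwack smolts ran from -0.49 to 1.08, 8 Chehalis smolts from -2.60 to -0.16, and Salmon River smolts read -2.53, -1.80, -2.89 and -1.77. The spring fish read -0.09, -0.02, 0.11 and -0.62 and the winter fish -0.55 and 0.18, again all above the summer and fall median of 2009. At C021R146 the spring fish read -0.26, 1.00, 0.12 and 0.23 and the winter fish -0.74 and 0.22, spread over the ranges of both years. No test was run on these 6 fish, since spring and winter were each sampled in 2009 alone.

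The 9 calls had the same sign in summer and fall fish taken alone. These are the fish that gave the calls, so that agreement largely follows from the selection and carries no weight of its own. At C021R146 the mean difference was 1.16 in summer and 1.28 in fall, and at C266R113 it was -0.93 and -1.34. The difference between the smolts of 2009 and of 2008 had that sign at all 9 probes too, for example 0.89 at C021R146 and -1.46 at C266R113, though there the rivers differ with the year. Over all 200 members, 73.0% had year differences of 1 sign in summer and fall, as had 61.6% of the flat probes. With the river difference added, 107 members (53.5%) and 41.4% of flat probes had 1 sign.

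The year calls depended on the setting more than the river calls did. With slide as a random block, 5 members (2.5%) were called, beside 319 of 23427 probes (1.36%). With array position as a covariate the counts were 3 members (1.5%) and 116 probes (0.495%). After quantile normalization they were 5 members (2.5%) and 366 probes (1.56%). All of these members were among the 9. The stock labels of the ocean fish differed between the years: in fall, 5 of 14 fish of 2008 and 1 of 11 of 2009 were labelled Chilliwack_R, and 7 and 10 Fraser. With stock as a covariate, an alternative chosen after seeing the data, limma called 121 probes (0.516%) and 3 members (1.5%), C021R146, C043R014 and C189R009. The 3 had differences of 1.31, 1.32 and -0.81 there. With the wide-spread arrays 56 members were called, of 3459 called probes (15.1%).

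A limited part of the variation between fish lay between the rivers or the years at sea. The share of within-season variance that lay between the rivers or between the years had a median of 19.5% over the members, from 0.31% to 50.6% at C194R085, and of 15.5% over the flat probes. At the paired probe C214R128 it was 1.54% and at C069R130 it was 9.43%. The remainder lay between fish of the same river, or of the same season and year, and includes variation between their arrays. These shares were not corrected for the part that arises without any river or year effect.

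Single fish carried unequal shares of the extremes. A member value lay over 2 scaled MADs from its season median in a median of 2.11% to 7.41% of members, by group. The fish with the largest share was fall fish 2623 of 2009, with 55 of 196 members (28.1%), followed by fall fish 3029 of 2009 (20.3%), 797 of 2008 (19.5%), 836 of 2008 (18.2%) and 3166 of 2009 (17.8%). The arrays of these 5 fish had SDs between 1.08 and 1.21, in the upper part of the 62. The part of array spread in their extremes was not tested.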

How the data were processed

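Gill RNA of 82 coho salmon was measured on 2-colour arrays. Per the labels' protocols, RNA was extracted with MagMAX-96 kits, amplified and coupled to Alexa dyes. The authors deposited 1 log ratio per spot (entered as a score, since the log base is not stated), centred near 0. A series table deposited by the authors, taken as log2, held identical values but lacked 17574 values of 1 Chilliwack array (fish 6), and was used as an alternative. For scanner, background correction, normalization and the reason for empty values, the sources used here say nothing. The 60 control spots were left out of all tests, and no empty value was filled.

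The members and lists were chosen with earlier results of these data known. Groups, year, origin, sex, area, length and array position came from the labels. For 1 fish the slide differed between 2 labels, and that of the array position was used. No pair of arrays repeated each other (highest r 0.951, lowest -0.250).

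Probe-wise linear models were run in limma 3.58.1 (R 4.3.3), with two-sided moderated tests or, for factors of 3 or more levels, F-tests from nested fits. Probes with values in at least 50% of the fish of each group, and at least 2, were tested. The scripts were checked on simulated data. Blocks came from scipy 1.17.1.

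Probes named were the 10 with the highest scores, those at the limits, the called members with the smallest adjusted p (3 per direction, 4 for F-tests, otherwise the smallest p), 3 leads per block and the 5 widest gaps. Marker lists could not be used without gene names. Alternatives covered arrays, centring, normalization, missing values, table, slide, array SD, array position, stock and variance prior. The number of arrays limits the precision. The labels name separate fish as replicates.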

Additional observations from a re-analysis of the deposited data

Results flagged for a closer look

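In 92 groups of 4 to 10 fish, the gap between the highest or lowest value and its neighbour was compared with the group's range, and 5 groups held a value far from the others. Chance gives about 1 in 20 groups, so this number is close to what chance gives. The block G score of Chilliwack fish 1 was 6.53, and the next highest of 8 was 1.85. This gap holds only among the arrays kept, since the 7 wide-spread Chilliwack arrays scored from 3.54 to 6.91. At C138R165, summer fish 2944 of 2009 had a log ratio of -2.21 and the next lowest of 8 had -0.23. At C043R014, Salmon River fish 1439 had 0.0593 and the next lowest of 4 had 1.18. At C266R113, Chehalis fish 1618 had -2.60 and the next lowest of 8 had -1.04. The array SD of spring fish 2133 was 0.636, and the next lowest of 4 was 0.785.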

How the results depend on the processing

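Which probes are members depended on the rule's details. Of the 200 members, 51 were chosen without the limit on array SD, 93 after quantile normalization, 96 with SD in place of MAD, 96 with MADs around the medians of season and year or river, and 124 with season medians within 0.3. With medians within 0.5, array medians subtracted or the series table, 137, 182 and 172 were shared. Complete linkage gave 11 blocks, with 18 members in the largest, where average linkage gave 7 and 55. Fork length called 33 members with the wide-spread arrays, and 27 when the 5 cm smolt was also left out (added after seeing the data), where the 62 arrays gave 0. Year at sea called 56 members with the wide-spread arrays, 5 after quantile normalization, 5 with slide as a random block 3 with array position and 3 with stock (added after seeing the data) as a covariate, where the setting of the report gave 9. Leaving out 1 smolt left 68 to 98 members called by river (68 to 80 for Salmon River smolts, and 85 to 98 for the others, added after seeing the data). Over all probes, river called 7796 with the wide-spread arrays, where the setting of the report gave 5053. Leaving out 1 smolt gave from 3363 probes (15.1%, without fish 1439) to 6207 (27.9%, without Chilliwack fish 1). Fork length called 1996 and 1686 with the wide-spread arrays, with and without the 5 cm smolt. Year at sea called 3459 with the wide-spread arrays and 366 after quantile normalization (642 otherwise). It called 319 with slide as a random block, 116 with array position and 121 with stock as a covariate. Sex by season called 1 probe after quantile normalization. In the alternatives run on single named probes, direction was compared only for tests that give one, so not for F-tests, and never reversed. Of these alternatives, 221 kept the side of the threshold, partly at probes called in no setting, and 5 did not. These were C189R009 with array position (-0.79, limma adjusted p = 0.0639) and C082R044 with quantile normalization (-0.98, 0.0508), array position (-1.04, 0.0719) and stock (-0.94, 0.0761), and C266R113 with stock (-1.05, 0.0607). The causes were not tested. Slide as a block was not run for the F-tests. No paired analysis was possible because every fish has its own number.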
